A study of Homo sapiens with 12 samples.

Results

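The chromosome 19 microRNA cluster is a tandem array of microRNA hairpins found only in primates. It was taken here as every annotated mature microRNA in the deposited count table named miR-498, miR-512, miR-515 to miR-527, miR-1283 or miR-1323, with any letter suffix and either arm. The rule found 60 of the 1906 annotated mature names in the table, on 76 rows and 44 hairpins. All 44 hairpins lay on the plus strand of chromosome 19 between 53666679 and 53762430 (GRCh38, GENCODE annotation), a stretch of 95.8 kb, and 15 of the names came from more than 1 hairpin. The table was a small RNA sequencing experiment on HGC-27 and AGS, both established human gastric cancer cell lines. Each line was treated for 24 h with 5 µM SAHA (vorinostat, an inhibitor of histone deacetylases) or with its vehicle DMSO, and each of the 4 groups held 3 libraries. Nothing in the labels said whether the replicates were separate cultures, so the p-values measure only the spread between these libraries, which may be technical. The labels named no other agent and no modified gene, and all cells were grown in the same serum-supplemented medium.

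Background: in humans the cluster is imprinted, is transcribed from the paternal chromosome and is best known from the placenta, where trophoblast makes its microRNAs in large amounts and releases them into maternal blood. Embryonic stem cells also express it, while most adult tissues do not. The hairpins lie among Alu repeats and are cut from the introns of a long noncoding RNA that begins at a CpG-rich promoter upstream of the first hairpin. A microRNA selects its targets mainly through its seed, bases 2 to 8 from the 5′ end, so names that share a seed are expected to bind overlapping sets of mRNAs.

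The sequences show which members can be told apart. RefSeq (GRCh38.p14) gave a mature sequence for 57 of the 60 names, and these held 48 distinct sequences, and miR-522-3p is named only. The 4 others among the 5 members listed in all 12 libraries have 4 different seeds, shown in capitals.
miR-516a-5p: uUCUCGAGgaaagaagcacuuuc
miR-1283: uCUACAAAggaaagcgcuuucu
miR-519a-5p: cUCUAGAGggaagcgcuuucug
miR-519a-3p: aAAGUGCAuccuuuuagagugu

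The next sequences belong to members that were near silent outside SAHA-treated AGS cells, again with the seed in capitals. miR-517a-3p and miR-517b-3p have the same sequence and the table gave them the same counts, so they are taken as 1 measurement. The seed of miR-517c-3p is the same.
miR-516b-5p: aUCUGGAGguaagaagcacuuu
miR-517a-3p: aUCGUGCAucccuuuagagugu
miR-517c-3p: aUCGUGCAuccuuuuagagugu
miR-526b-5p: cUCUUGAGggaagcacuuucugu
miR-518c-3p: cAAAGCGCuucucuuuagagugu
miR-1323: uCAAAACUgaggggcauuuucu
miR-519d-3p: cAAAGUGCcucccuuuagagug
miR-520a-3p: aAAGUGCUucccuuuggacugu
miR-512-3p: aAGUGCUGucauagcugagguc

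Many members carry the letters AAGUGC near the 5′ end, a core that microRNAs of embryonic stem cells and of the proliferation-associated miR-17 family also carry. The 6 letters were within the first 9 bases of 14 of the 57 members with a sequence (24.6%), against 31 of all 2370 human mature sequences in the RefSeq table (1.31%). miR-520a-3p has the seed of miR-372-3p, whose gene lies just downstream of the cluster, and miR-519d-3p has the seed of miR-17-5p.
miR-372-3p: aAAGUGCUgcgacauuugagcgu
miR-17-5p: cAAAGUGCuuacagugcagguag

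Library totals ran from 2665109 to 6525388 counts over all rows, and 735 to 940 annotated names were listed per library. The smallest listed count was 2 and unlisted names were blank, so a value of 0 may stand for 1 read. Levels are given in CPM, counts scaled to the total of annotated counts after TMM scaling, which sets the libraries to a common scale. The cluster was a small part of each library, 0.0161% to 0.0222% of annotated counts in HGC-27, 0.0475% to 0.0548% in AGS under DMSO and 0.0664% to 0.106% in AGS under SAHA. Gut epithelial microRNAs were all present, with 8 of 8 listed in every group. Their summed level was 1566 to 2768 CPM in HGC-27 under DMSO, 6735 to 7064 CPM in HGC-27 under SAHA, 2920 to 8059 CPM in AGS under DMSO and 5663 to 6899 CPM in AGS under SAHA. Of these 8, miR-192-5p (log2 fold change 2.06) and miR-194-5p (1.82) rose with SAHA in HGC-27 and none was called in AGS. Over all 608 tested names, 40.8% were called in HGC-27 and 26.5% in AGS. The AGS DMSO libraries were spread, with miR-192-5p at 2336, 6446 and 2700 CPM. Blood microRNAs (6 names, 4 tested) summed to between 39.1 and 441 CPM and fibroblast and smooth muscle microRNAs (4 names, 3 tested) to between 78.9 and 3478 CPM. None of the blood or fibroblast names was called with SAHA in either line, and miR-223-3p was listed at 0 in AGS under DMSO; the part of other cells or of serum in these levels was not tested.

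Of the 60 members, 47 were listed in at least 1 library and 13 in none. In all 12 libraries 5 of the 60 were listed: miR-516a-5p, miR-522-3p, miR-1283, miR-519a-5p and miR-519a-3p. The number of members listed in at least 1 of a group's 3 libraries was 14 in HGC-27 under DMSO, 16 in HGC-27 under SAHA, 23 in AGS under DMSO and 47 in AGS under SAHA. Every listed member was thus listed in an AGS SAHA library, and 23 of the 47 (48.9%) were listed in no library of another group. Over all annotated names that were listed anywhere, 88 of 1380 (6.38%) were listed only in AGS SAHA libraries. No member was listed only in 1 of the other 3 groups. This is a description, since a name seen in few reads is easily missed in a single library.

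**Figure D1:**
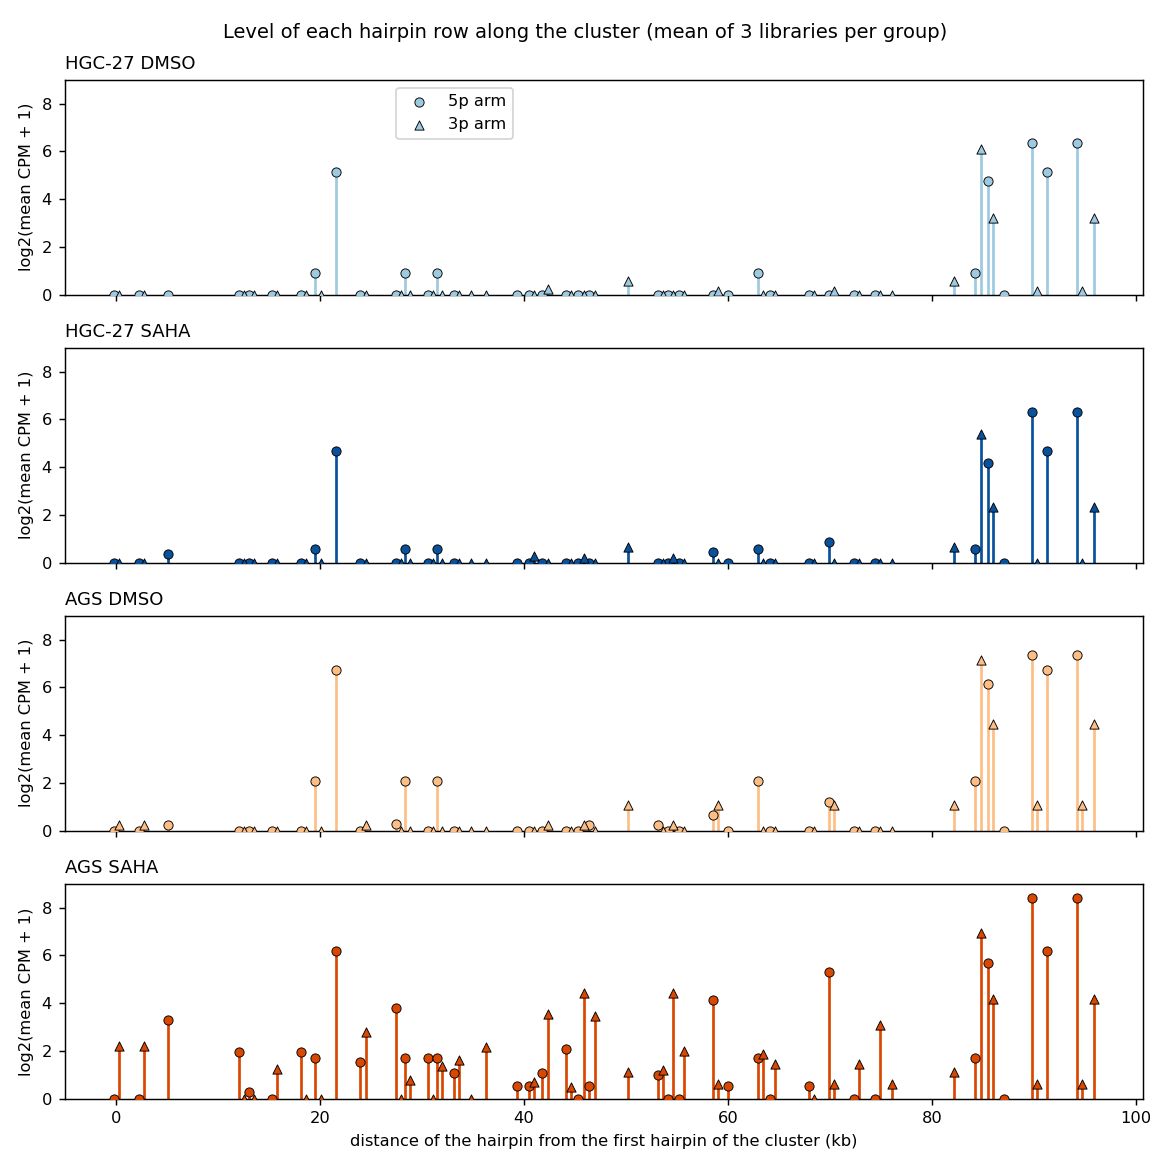
Level of each of the 76 rows as log2 of mean CPM plus 1 over 3 libraries, against the distance of its hairpin from the first hairpin in kb, with circles for the 5p arm and triangles for the 3p arm. A name with several hairpins is drawn at each one, with the count of that row. In HGC-27 and in AGS under DMSO the tall stems stand beyond 84 kb, apart from miR-1283 at 21.8 kb, and in AGS under SAHA stems appear along the rest of the cluster.

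The 5 members listed in all 12 libraries each had a hairpin at the far end of the cluster. After the values were seen, the hairpins were divided at 84 kb from the first one, with 37 before that point and 7 beyond it. Their hairpins beyond 84 kb were those of miR-522 at 84.53 kb, miR-519a at 85.72 and 95.67 kb, miR-516a at 90.06 and 94.45 kb and miR-1283 at 91.55 kb. The remaining hairpin there, that of miR-527 at 87.34 kb, was listed in no library. miR-1283 also has a hairpin at 21.8 kb, and the table gave both hairpins the same counts. miR-519a-5p shares its sequence with hairpins at 19.79 to 63.16 kb. The 9 members listed in HGC-27 under DMSO but not in all 12 libraries did not keep to the far end, with 9 of their 12 hairpins before 84 kb. Among these, miR-521 has hairpins at 49.91 and 81.96 kb and was listed in 10 libraries. The 33 listed members that no HGC-27 DMSO library held came from 32 hairpins, all of them between 0 and 75.83 kb.

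Levels of the 5 constant members differed between the lines under DMSO. All 5 were higher in AGS than in HGC-27, by 1.01 to 1.64 on the log2 scale, and the AGS and HGC-27 replicates did not overlap for any of them. In these bulk samples fewer cells with a microRNA and less of it per cell cannot be told apart. Background for this comparison was high: edgeR's quasi-likelihood test called 44.6% of 608 tested names at a Benjamini-Hochberg adjusted p under 0.05, 24.5% of the tested names were called higher in AGS, and the replicates of 55.3% of the tested names did not overlap. Only 6 members passed the filter on low counts and were tested, these 5 and miR-516b-5p, so the calls cover a small part of the cluster. The sixth, miR-516b-5p, passed the filter through its counts in AGS under SAHA. It had no counts in HGC-27 under DMSO and was not called in this comparison (adjusted p = 0.0759, edgeR), though the fit with no filter on low counts called it (adjusted p = 0.0433).

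**Figure D2:**
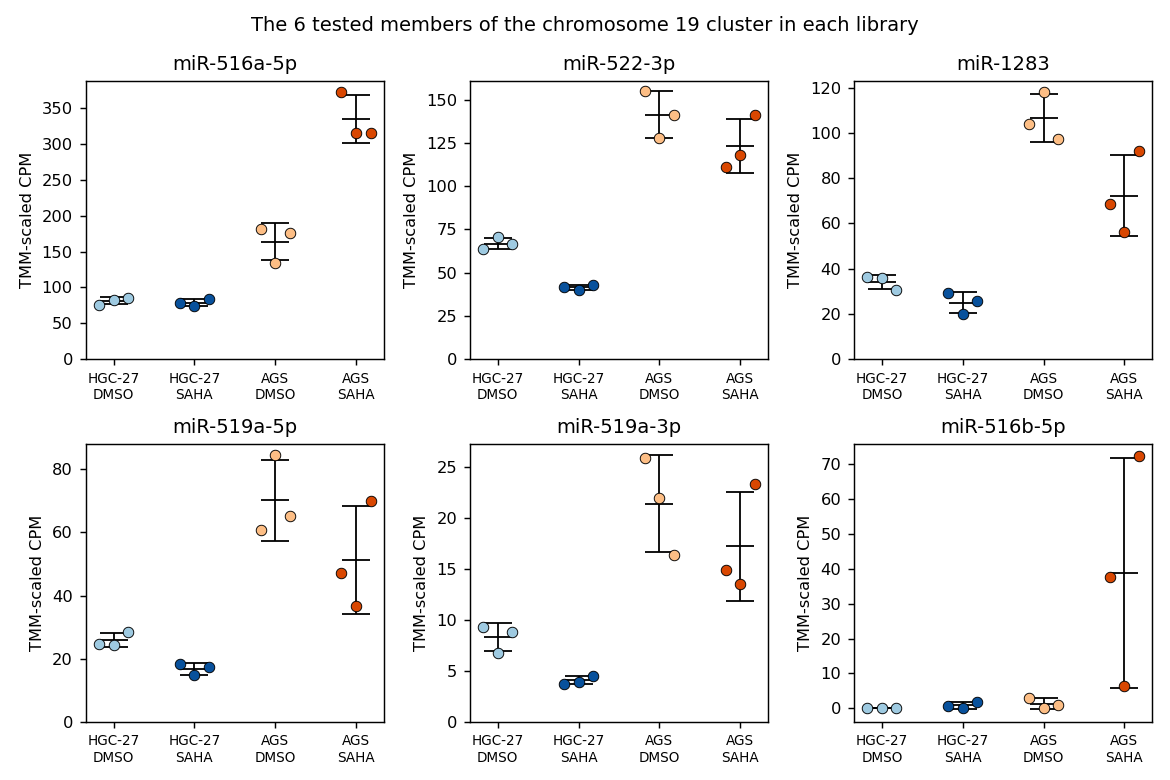
TMM-scaled CPM of the 6 tested members in each library, points for libraries and bars for the mean and SD of 3 replicates. The vertical axes differ between panels; miR-516a-5p is higher in AGS SAHA than in all other groups, and miR-516b-5p is spread from 6.43 to 72.3 CPM in AGS SAHA.

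miR-516a-5p was the most abundant member in every group. Under DMSO its level was 75.6, 82.6 and 85 CPM in the HGC-27 libraries and 181, 134 and 176 CPM in the AGS libraries. All AGS values were above all HGC-27 values, with a log2 difference of 1.01 ± 0.13 (SE) and an adjusted p of 9.43e-05 (edgeR). With SAHA it stood at 78.4, 74.3 and 83.8 CPM in HGC-27 and at 373.5, 316 and 316 CPM in AGS. The HGC-27 groups overlapped and the AGS groups did not. It rose with SAHA in AGS by 1.03 ± 0.13 (log2, SE; edgeR adjusted p = 0.000273), and its rank by mean level went from 179 of 996 listed names to 125 of 1086. In HGC-27 the log2 difference was -0.04 ± 0.13 (edgeR adjusted p = 0.846), and its sign turned on plain library totals and in some of the fits without 1 library.

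The response of miR-516a-5p differed between the lines. The difference of the 2 SAHA responses was 1.07 ± 0.18 on the log2 scale (edgeR adjusted p = 0.0112), a comparison in which 1.81% of the tested names were called and miR-516a-5p was 1 member called of 6 tested. The call was lost when any of 4 libraries was left out, with 0.97 and an edgeR adjusted p of 0.0634 without HGC-27 SAHA replicate 2, 0.92 and 0.0828 without HGC-27 DMSO replicate 2, 0.88 and 0.106 without HGC-27 DMSO replicate 3, and 0.83 and 0.107 without AGS SAHA replicate 1. The opposite arm, miR-516a-3p, was scarce: AGS SAHA libraries summed to 5 counts of it against 2883 of the 5p arm, and AGS DMSO libraries to 11 against 1430.

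The other 4 constant members had lower means with SAHA in both lines. In HGC-27, miR-522-3p and miR-519a-3p fell with SAHA, while miR-519a-5p and miR-1283 had lower means without passing the test. The 2 called lower of 6 tested members compare with 40.8% of all tested names called in HGC-27 and 19.1% of all tested names called lower. The 4 members whose SAHA libraries all lay below the DMSO libraries compare with 57.9% of all tested names without overlap. Under plain library totals, in place of TMM scaling, the median of all tested names moved up by 0.12 (log2) in HGC-27 and 0.19 in AGS, and the share of calls that were higher went from 53.2% to 64.6% and from 56.5% to 75.8%. The median log2 fold changes of the 6 tested members, miR-516b-5p included, were -0.53 in HGC-27 and -0.26 in AGS, beside 0.08 over all tested names in both lines.

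miR-522-3p, the second most abundant member, was at 63.6, 70.3 and 66.5 CPM in HGC-27 DMSO libraries and at 41.9, 39.8 and 42.8 CPM in HGC-27 SAHA libraries. The groups did not overlap, and it fell by 0.69 on the log2 scale (SE 0.12, edgeR adjusted p = 0.0013). In AGS it was at 155, 128 and 141 CPM under DMSO and at 111, 118 and 141 CPM under SAHA. These groups overlapped, and the log2 difference was -0.20 ± 0.12 (edgeR adjusted p = 0.274). The difference between the 2 responses, 0.49 ± 0.17, did not pass the test (edgeR adjusted p = 0.161). Its 5p arm was listed with 20 counts in AGS SAHA libraries beside 1077 of the 3p arm. The 5p sequence is also that of miR-519a-5p and other names, so the yield of that arm is uncertain.

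miR-519a gave reads from both arms. The 3p arm carries the AAGUGC core and was at 9.33, 6.78 and 8.87 CPM in HGC-27 DMSO libraries and at 3.75, 3.95 and 4.53 CPM in HGC-27 SAHA libraries. It fell by 1.02 on the log2 scale (SE 0.28, edgeR adjusted p = 0.015) with no overlap between the groups, but without HGC-27 DMSO replicate 3 the value was -0.91 and the edgeR adjusted p 0.0561, which left 1 member called in HGC-27. In AGS its level was 25.9, 22 and 16.4 CPM under DMSO and 14.9, 13.5 and 23.4 CPM under SAHA, which overlapped, with an edgeR adjusted p of 0.432. Outside the cluster 7 microRNAs with related seeds were tested, and most fell with SAHA: miR-17-5p by 0.89 in HGC-27 and 0.93 in AGS, miR-20a-5p by 0.94 and 0.91, and miR-93-5p by 0.49 and 0.37 (log2, edgeR). Of the 7 tested among the 11 names of that list, 6 were called lower and 1 higher in HGC-27, and 5 lower and 1 higher in AGS. Over all tested names, 40.8% were called in HGC-27, with 19.1% called lower. In AGS 26.5% of all tested names were called, with 15% called higher and the rest of the calls lower. The 1 called higher, miR-372-3p, was tested only through its counts in SAHA libraries. The miR-302 members of the list, embryonic stem cell microRNAs, were at 0 for miR-302a-3p, miR-302b-3p and miR-302c-3p in every group.

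The 5p arm of miR-519a was at 24.6, 24.4 and 28.3 CPM in HGC-27 DMSO libraries and at 18.4, 14.7 and 17.4 CPM in HGC-27 SAHA libraries. The groups did not overlap, yet the log2 difference of -0.61 ± 0.23 did not pass the test (edgeR adjusted p = 0.0588). In AGS it was at 60.7, 84.6 and 65.1 CPM under DMSO and at 47, 36.6 and 70 CPM under SAHA, which overlapped (edgeR adjusted p = 0.185). miR-1283 was at 36.3, 35.7 and 30.7 CPM in HGC-27 DMSO libraries and at 29.1, 20.1 and 25.6 CPM in HGC-27 SAHA libraries, a log2 difference of -0.45 ± 0.20 (edgeR adjusted p = 0.0931). In AGS it was at 104, 118 and 97.4 CPM under DMSO and at 68.7, 56.3 and 91.8 CPM under SAHA. Those AGS groups did not overlap, and the log2 difference of -0.56 ± 0.19 missed the threshold (edgeR adjusted p = 0.0554) but passed it with DESeq2 (-0.60, adjusted p = 0.0131).

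**Figure D3:**
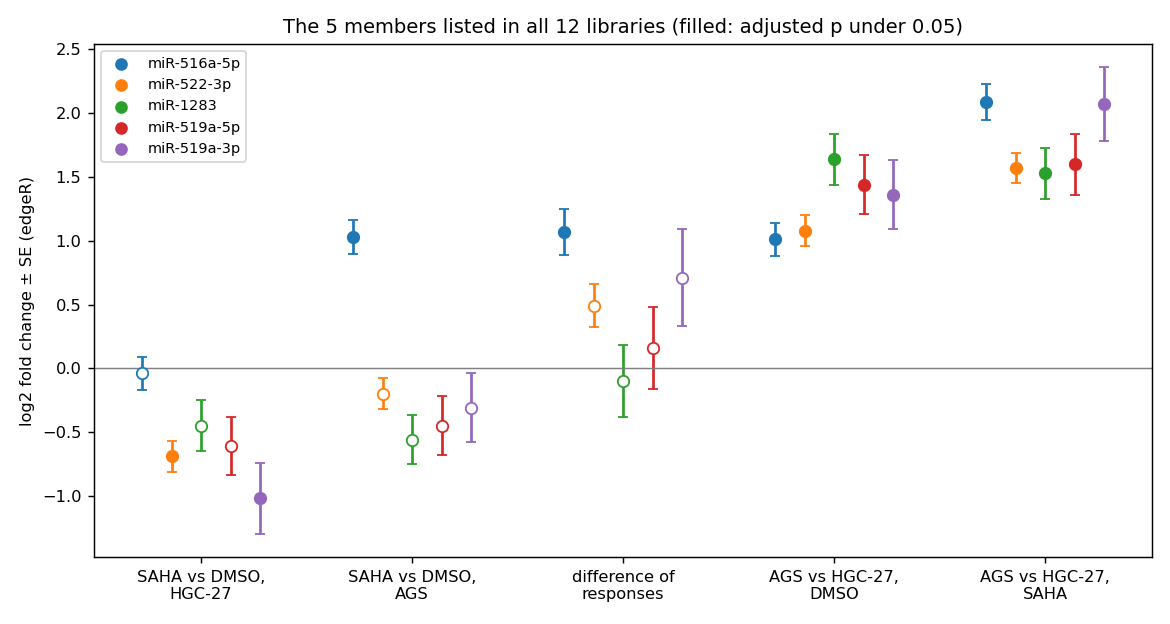
Log2 fold change from edgeR, with an SE derived from its F statistic, for the 5 members listed in all 12 libraries. The 5 comparisons are shown, filled where the adjusted p was under 0.05. The miR-516a-5p point stands at 1.03 for SAHA in AGS and at -0.04 in HGC-27, and all 5 points are above 0 in both comparisons of AGS with HGC-27.

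Mature sequence alone does not assign reads to a hairpin in this cluster. The sequence of miR-519a-5p is also that of miR-518e-5p, miR-519b-5p, miR-519c-5p, miR-522-5p and miR-523-5p, yet the table gave miR-519a-5p 1578 counts in all and each of the other 5 names an identical, lower set of counts with a total of 67. The hairpins differ next to the shared bases, which are in lower case here between the 4 bases before and the 4 bases after, in capitals.
hsa-mir-519a-1: GACAcucuagagggaagcgcuuucugUUGU
hsa-mir-518e: GACCcucuagagggaagcgcuuucugUUGG
hsa-mir-519b: GACCcucuagagggaagcgcuuucugUUGU
hsa-mir-519c: GACCcucuagagggaagcgcuuucugUUGU
hsa-mir-522: GUCCcucuagagggaagcgcuuucugUUGU
hsa-mir-523: GACCcucuagagggaagcgcuuucugUUGU

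Counted from the first printed base and relative to hsa-mir-518e, hsa-mir-519a-1 carries C4A and G30U, hsa-mir-522 carries A2U and G30U, and the other 3 carry G30U alone. How the submitters' counting divided reads between these rows was not given in the sources used here, so the levels of these 6 names are uncertain as to hairpin. In the same way miR-516b-5p had 336 counts in AGS SAHA libraries on its first hairpin and 144 on its second. These hairpins have the same mature sequence and differ by C23G, counted from the first base of the mature sequence in lower case, with 8 following bases in capitals.
hsa-mir-516b-1: aucuggagguaagaagcacuuuCUGUUUUG
hsa-mir-516b-2: aucuggagguaagaagcacuuuGUGUUUUG

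Many of the members that were near silent under DMSO were listed with higher counts in AGS cells treated with SAHA, but not all. In summed AGS counts miR-521 had 10 under DMSO and 10 under SAHA, miR-516a-3p had 11 and 5, and each of the 5 names that share the miR-519a-5p sequence had 29 and 20. A further 13 members were listed in no library. miR-516b-5p, from hairpins at 58.76 and 70.17 kb, was listed at 11, 0 and 2 counts in the AGS DMSO libraries and at 94, 20 and 222 counts in the AGS SAHA libraries. In CPM these were 3.06, 0 and 0.936 under DMSO and 37.8, 6.43 and 72.3 under SAHA. The groups did not overlap, and the second SAHA replicate was far below the other two. The log2 difference was 4.75 ± 1.20 (edgeR adjusted p = 0.0196), for a member that passed the filter only through the AGS SAHA counts; with no filter the edgeR adjusted p was 0.00452. The ratio of summed counts per effective library size was 26 with an exact 95% interval of 15 to 49.4, which leaves out the spread between libraries. The 2 members called higher in AGS, miR-516a-5p and miR-516b-5p, compare with 26.5% of all tested names called, 15% of all tested names called higher, and 38.7% without overlap; miR-516b-5p was tested only because of its counts in the higher group, so the count of 2 is a description. The call for miR-516b-5p was lost without AGS SAHA replicate 1 (edgeR adjusted p = 0.0522), AGS SAHA replicate 3 (0.0511) or AGS DMSO replicate 3 (0.0636), and without AGS SAHA replicate 1 only 1 member was called in AGS. In HGC-27 it was listed at 2, 0 and 8 counts under SAHA and in no DMSO library. The log2 difference there was 4.68 (edgeR adjusted p = 0.132), set against no DMSO count. The difference of the 2 responses was 0.07 (edgeR adjusted p = 0.849). That value rests on an HGC-27 change without any DMSO count, so it shows neither equal responses nor a response particular to AGS.

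The filter on low counts kept out the other induced members, so their counts are given first. miR-517a-3p, a placental member that circulates in pregnancy, had 49, 6 and 122 counts in AGS SAHA libraries and 2, 0 and 0 in AGS DMSO libraries. Its ratio of summed counts was 89.1, with an exact 95% interval of 24.3 to 741, whose lower end became 17.1 with 1 count put in each blank library. miR-526b-5p had 18, 8 and 88 counts with SAHA against 0, 2 and 0, a ratio of 57.4 (15.5 to 480). These intervals were computed on counts summed over the libraries of a group, so they leave out the spread between libraries. The labels' protocols name no molecular identifiers, so the intervals cover the counting error of reads only, not of molecules. Both members were above all AGS DMSO libraries in each AGS SAHA library, and the second SAHA library was the lowest for both.

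miR-518c-3p had 14, 2 and 78 counts with SAHA in AGS against 2, 0 and 0, a ratio of 47.3 (12.7 to 396). miR-1323, from the third hairpin of the array, had 21, 2 and 53 counts against 2, 0 and 0, a ratio of 38.3 (10.2 to 322). For both, the second SAHA library had as many counts as the highest DMSO library, so the groups touched. miR-519d-3p, with the miR-17-5p seed, had 19, 4 and 64 counts with SAHA and none in any DMSO library. Its mean AGS SAHA level was 9.19-fold a floor of 3 counts per AGS DMSO library, a ratio that leaves out the spread between libraries. miR-517c-3p had 11, 0 and 56 counts and none under DMSO, with a mean 6.99-fold the same floor. In that case the second SAHA library listed no read at all.

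The members with the highest totals after the tested ones also include miR-517b-3p, which repeats miR-517a-3p, and the 5 names that share the miR-519a-5p sequence, ranked equal with miR-517c-3p. Chosen after their values were seen, miR-520a-3p had 16, 0 and 35 counts with SAHA in AGS against 2, 0 and 0 (ratio 25.7), and miR-512-3p, from the first hairpin pair, had 10, 0 and 21 against 2, 0 and 0 (ratio 15.6). Members with the AAGUGC core other than miR-519a-3p together gave 59, 8 and 169 counts in AGS SAHA libraries. The same sum was 4, 0 and 0 in AGS DMSO libraries, 0, 0 and 3 in HGC-27 SAHA libraries and 0 in all HGC-27 DMSO libraries.

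Several induced hairpins gave most of their reads from 1 arm, and others were listed with similar counts on both. The examples beyond the members named above were chosen after their values were seen. In AGS SAHA libraries the 3p arm led for miR-517a (177 counts against 0), miR-518c (94 against 10), miR-519d (87 against 4) and miR-520a (51 against 17). The 5p arm led for miR-516b (336 against 5), miR-526b (114 against 0), miR-524 (29 against 3) and miR-515 (25 against 0). The listed 5p and 3p counts were closer for miR-518e (20 and 24 counts), miR-518f (10 and 18), miR-520d (9 and 12) and miR-520c (4 and 5). The 5p sequence of miR-518e is also that of miR-519a-5p and other names. That of miR-520c is also that of miR-518d-5p and miR-526a. The 5p counts of miR-518e and miR-520c may therefore belong to other hairpins, and their arm balance is uncertain. The 3p row of miR-516b holds the same sequence as miR-516a-3p, so those 5 counts may belong to either hairpin.

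A fit with no filter on low counts tested 1380 names and 47 members. Of these 47, 23 had counts only in AGS SAHA libraries and entered the fit through them. Those could only come out higher in AGS with SAHA, so the count called higher there is a description. The fit called 9 members higher with SAHA in AGS and none lower, against 9.35% of all names called and 5.43% of all names called higher. They were miR-516a-5p, miR-516b-5p, miR-517a-3p, miR-517b-3p, miR-517c-3p, miR-518c-3p, miR-519d-3p, miR-526b-5p and miR-1323, of which miR-517a-3p and miR-517b-3p are 1 sequence. The edgeR adjusted p was 0.00182 for miR-517a-3p, 0.00568 for miR-519d-3p and 0.00606 for miR-526b-5p. For miR-518c-3p the edgeR adjusted p was 0.016, for miR-1323 0.0206 and for miR-517c-3p 0.0337. Of these, miR-519d-3p and miR-517c-3p had counts only in AGS SAHA libraries, and the rest had most of theirs there. The p-values of these members are therefore descriptions too. Leaving out 1 AGS library changed the number called higher to between 5 and 14, with 14 without AGS SAHA replicate 2 and 5 without AGS SAHA replicate 3, where miR-1283 was also called lower. Without HGC-27 SAHA replicate 2 it was 16, with 1 more called lower. In HGC-27 the same fit called 2 members, miR-519a-3p and miR-522-3p, both lower, against 18% of all names called and 9.06% of all names called lower. For the difference between the responses of the lines 1 member, miR-516a-5p, was called, against 0.797% of all names, and 3 had an unadjusted p under 0.05. Most of the other induced members had no counts in either HGC-27 group, so no HGC-27 response could be estimated and the difference between the lines was not tested for them.

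Summed over the 33 listed members that no HGC-27 DMSO library held, with each mature sequence counted once, the level was 117, 14.8 and 294 CPM in the AGS SAHA libraries. It was 6.4, 0.666 and 0.936 CPM in the AGS DMSO libraries and 0.625, 0 and 3.85 CPM in the HGC-27 SAHA libraries. All AGS SAHA libraries were above all AGS DMSO and HGC-27 SAHA libraries. The AGS SAHA mean was 142 CPM with an SD of 141, beside 2.67 with an SD of 3.24 in AGS under DMSO. The SD was thus about as large as the mean or larger in both AGS groups. The number of these 33 names listed was 24, 9 and 32 in AGS SAHA libraries, 8, 1 and 1 in AGS DMSO libraries and 1, 0 and 5 in HGC-27 SAHA libraries. The choice of the 33 names sets HGC-27 DMSO to 0, so nothing is read from that group. Of the 33, 23 were listed only in AGS SAHA libraries. The gap between AGS SAHA and the other groups is thus partly fixed by the choice and is a description.

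**Figure D4:**
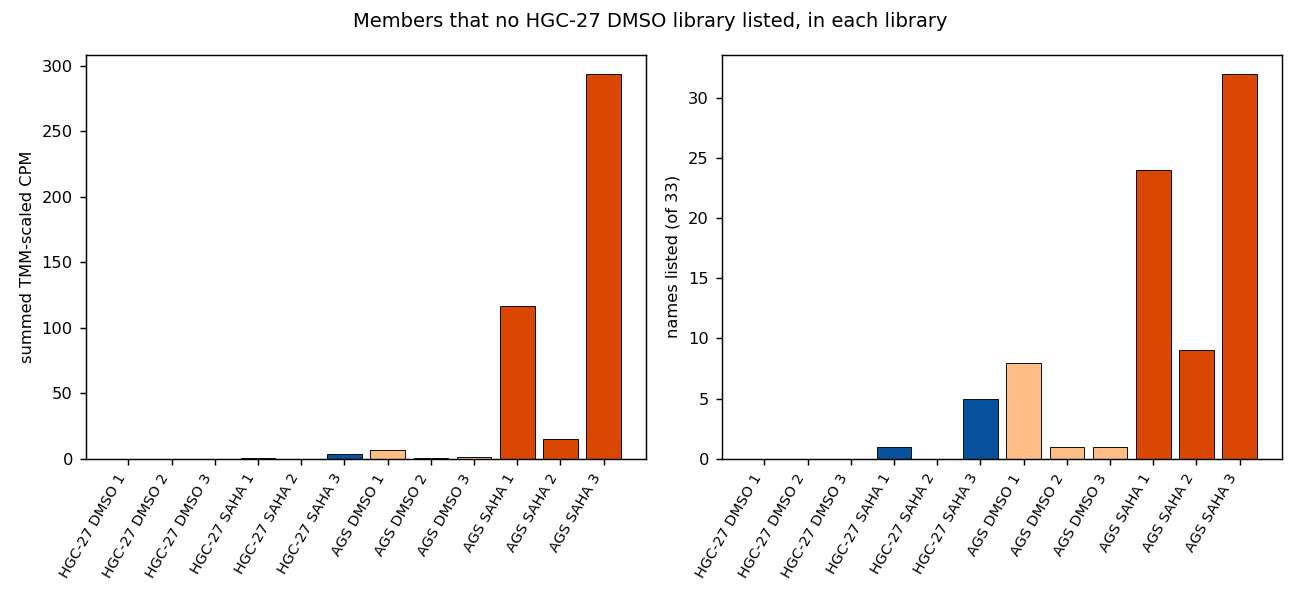
Summed TMM-scaled CPM (left, each mature sequence once) and number of names listed (right) in each library for the 33 listed members that no HGC-27 DMSO library held; HGC-27 DMSO is 0 by that choice. AGS SAHA replicates 1, 2 and 3 stand at 117, 14.8 and 294 CPM, and no other library is above 6.4 CPM. Of the 33 names, 23 were listed only in AGS SAHA libraries.

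AGS SAHA replicate 2 was the lowest of its group for these members. It held 3176607 counts over all rows, between the 2756985 and 3487282 of the other 2 AGS SAHA libraries, listed 882 annotated names beside 850 and 940, and had a TMM factor of 1.17 beside 1.06 and 1.03. Its miR-516a-5p level was 316 CPM beside 373.5 and 316, and its miR-522-3p level 118 CPM beside 111 and 141. It was also the lowest of the 3 for miR-1283 (56.3 CPM beside 68.7 and 91.8), miR-519a-5p (36.6 beside 47 and 70) and miR-519a-3p (13.5 beside 14.9 and 23.4). The 14 members that HGC-27 DMSO libraries also held, each sequence once, summed to 542 CPM beside 622 and 670. The bearing of that library's treatment or handling on the low values was not tested.

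Under SAHA, as under DMSO, the 5 constant members were higher in AGS than in HGC-27 without overlap between replicates, against 42.8% of all tested names called, 22.9% of all tested names called higher, and 54.1% without overlap. miR-516b-5p was also called higher (edgeR adjusted p = 0.00724), but it was tested only because of its counts in AGS under SAHA. The log2 difference was 2.09 ± 0.14 for miR-516a-5p (edgeR adjusted p = 1.33e-06) and 1.57 ± 0.12 for miR-522-3p (edgeR adjusted p = 4.38e-06). With no filter, 17 of 47 members were called higher in AGS, against 17.8% of 1380 names called and 9.71% of the 1380 called higher, and the count was 10 without AGS SAHA replicate 3 and 11 without HGC-27 DMSO replicate 3. Of the 47, 23 had counts only in AGS SAHA libraries and could only come out higher, so the count of 17 is a description. This comparison and the SAHA response in AGS share the AGS SAHA libraries.

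The microRNAs just beyond the end of the cluster were measured in the same table. miR-371a, miR-372 and miR-373 form a separate group downstream, known from embryonic stem cells and germ cell tumours. Of its 6 names in the table only miR-372-3p was tested. It had 16, 13 and 15 counts in HGC-27 SAHA libraries and none in HGC-27 DMSO libraries, and 8, 8 and 17 counts in AGS SAHA libraries against 0, 2 and 2. The groups did not overlap in either line, the second AGS SAHA library was not low, and edgeR called it higher in both (adjusted p = 0.001 in HGC-27 and 0.0241 in AGS). It passed the filter on low counts only through its SAHA libraries, so the calls and the lack of overlap are descriptions. Of all tested names, 40.8% were called in HGC-27 and 26.5% in AGS, and 57.9% and 38.7% were without overlap.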

How the data were processed

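Small RNA libraries were made from total RNA and selected for inserts of microRNA length, per the labels' protocols. The authors deposited raw counts per hairpin and mature name; cutadapt and Novoalign 2.07.11 are named in the submitters' processing notes, and neither a genome build nor a microRNA annotation release was given in the sources used here. The members and the comparison lists were chosen with earlier results of these data known.

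Blanks were read as 0, and each mature name took its hairpin row with the highest total over 12 libraries. Predicted entries (860 of 2909) were left out. edgeR 4.0.16 in R 4.3.3 was used with filterByExpr, TMM scaling and the quasi-likelihood test in 1 fit over the 4 groups, with Benjamini-Hochberg adjustment over all 608 tested names and a threshold of 0.05. This test reports no SE, so each SE given is the absolute log2 fold change divided by the square root of the test's F statistic. The fit was tested on simulated data. Every tested member was named, then the 10 others with the highest totals. Alternatives were DESeq2 1.42.0, RLE scaling, plain totals, no filter, the sum of hairpin rows, predicted entries included, fewer groups, a replicate block and leaving out each library. The counts used here held no row named miR-498 or miR-520e.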

Additional observations from a re-analysis of the deposited data

Results flagged for a closer look

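The SAHA response of miR-516a-5p differed between the 2 lines by a direct test, with a log2 difference of 1.07 between AGS and HGC-27 (edgeR adjusted p = 0.0112). All 3 AGS SAHA libraries lay above all 3 AGS DMSO libraries, while the HGC-27 groups overlapped. The call was lost when 1 of 4 libraries was left out, each named with the result. Groups of 3 libraries are too small for a check on single outlying samples.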

How the results depend on the processing

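Of the 5 counts of called members (2 in HGC-27, 2 in AGS, 1 for the difference of the responses, 5 for AGS against HGC-27 under DMSO and 6 under SAHA), testing annotated and predicted entries together gave 4 in HGC-27, all lower, and 4 in AGS, 2 of them higher. With no filter on low counts there were 9 in AGS and 17 for AGS against HGC-27 under SAHA, because more members were then tested. Leaving out 1 library gave 1 to 4 in HGC-27 (4 without AGS SAHA replicate 3), 1 to 3 in AGS, 0 to 1 for the difference, 5 to 6 under DMSO and 6 to 6 under SAHA; with no filter as well, chosen after seeing the data, it gave 1 to 4, 6 to 17 (7 and 14 without AGS SAHA replicates 1 and 2, 8 and 7 without AGS DMSO replicates 1 and 3, 12 without replicate 1 of either HGC-27 group), 0 to 2, 4 to 6 and 10 to 21 (15, 20 and 14 without HGC-27 SAHA replicates 1 to 3, 11 without HGC-27 DMSO replicate 3, 14 and 20 without AGS SAHA replicates 1 and 2, 16, 18 and 16 without AGS DMSO replicates 1 to 3). The mean summed level was 222 CPM in HGC-27 DMSO libraries and 210 CPM on plain library totals. Summing all hairpin rows, which counts shared reads repeatedly, moved it to 346 CPM, and from 171 to 280 CPM in HGC-27 SAHA, 526 to 821 CPM in AGS DMSO and 787 to 1239 CPM in AGS SAHA libraries. The sign turned only for values near 0: miR-516a-5p in HGC-27 was 0.08 on plain totals, 0.04 with hairpin rows summed, 0.03 with the compared groups only and from -0.09 to 0.07 without 1 library. The difference of responses for miR-1283 became 0.01 with no filter and lay from -0.31 to 0.05 without 1 library, and that for miR-519a-5p from -0.14 to 0.35; the cause was not tested. Of all single-member values under the alternatives, 491 kept their direction and their side of the threshold, 19 gained a call, 8 lost one and 17 changed sign. Depth limits the 33 listed members that no HGC-27 DMSO library held, whose AGS DMSO counts were 0 to 2 apart from 11 for miR-516b-5p in replicate 1.

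A replicate block changed the counts of called members to 3 in HGC-27, 2 in AGS, 1 for the difference, 6 under DMSO and 6 under SAHA. Correlations of deviations between same-numbered libraries ran from -0.31 to 0.51 and were not above 0.1 in every pair of any comparison, so the numbers are not taken to pair the samples.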
